A study of Mus musculus with 6 samples.

Results

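The 10 genes described here encode the pyruvate dehydrogenase complex of mitochondria and the enzymes that switch it off and on. They were taken by symbol from a count table of 47967 genes: the complex subunits Pdha1, Pdhb, Dlat and Pdhx, the kinases Pdk1, Pdk2, Pdk3 and Pdk4, and the phosphatases Pdp1 and Pdp2. All 10 had a single row and passed the filter on low counts, with 15347 genes tested in all. RNA was sequenced from gastrocnemius, the large calf muscle, of C57BL/6 male mice aged 20 to 24 weeks. The high phosphate group ate 2.0% inorganic phosphate (2.3% in total) for 12 weeks, and the normal phosphate group ate 0.6% (0.9% in total) for the same time. Sodium (0.9%), potassium (1.8%), calcium (1.9%) and magnesium (0.3%) were the same in both diets. There were 3 libraries for each diet. Whether the libraries of a diet are different mice is not stated in the labels, so the p-values rest on a spread among libraries that may be partly or wholly technical.

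The complex converts pyruvate, the end product of glycolysis, to acetyl-CoA, and so commits carbon from glucose to oxidation in the citric acid cycle. The kinases phosphorylate serines of the alpha subunit and switch the complex off, and the phosphatases remove those phosphates and switch it on. In muscle, Pdk4 is known as the kinase whose RNA rises in fasting and when fatty acids are the main fuel, Pdk2 as an abundant and widely expressed kinase, and Pdp1 as the calcium-activated phosphatase.

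The libraries held 21856006 to 27474251 counts. Levels are given as CPM, the counts scaled to a common effective library size by the TMM method, which lines up libraries by a typical gene. Means carry the SD of 3 libraries. Each log2 fold change sets high against normal phosphate, carries its SE and comes from edgeR's quasi-likelihood test. A gene was called at a Benjamini-Hochberg adjusted p under 0.05 over all genes tested. At this threshold 49.3% of all genes were called (23% higher and 26.3% lower), and the libraries of the 2 diets did not overlap in 62.4% (30.3% higher and 32.1% lower). The 6 muscle fibre markers had a summed level of 96990.2 to 104338 CPM on high phosphate and 35722 to 54012 CPM on normal phosphate, a ratio of means of 2.17, and 4 of them were called higher. Of 9 fast fibre markers 7 were called higher (summed level 142081 to 184106 against 50879.9 to 74299 CPM), and of 8 slow fibre markers 6 were called lower (828 to 1263 against 2026 to 2952 CPM). All 8 white adipocyte, 7 macrophage and 6 fibroblast markers were called lower. Their summed levels on high against normal phosphate were 588 to 1009 against 2445 to 3101 CPM for adipocytes, 319 to 463 against 937 to 1779 CPM for macrophages, and 2143 to 2376 against 4228 to 10070 CPM for fibroblasts. None of the markers of these 6 lists was at 0 in all libraries. The part of these differences in marker level in the results below was not tested, and in bulk RNA fewer cells of a type and less RNA per cell cannot be told apart.

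Of the 10 genes, 6 were called higher on high phosphate (Pdk1, Pdk2, Pdk4, Pdha1, Dlat and Pdhx), 1 was called lower (Pdk3) and 3 were not called (Pdp1, Pdp2 and Pdhb). Groups did not overlap in 8 of the 10, 7 of them higher (against 30.3% of all genes) and 1 lower (32.1%). Pdk4 had the largest difference and the widest spread, and its call depended on single libraries. Neither phosphatase was called. With libraries scaled by their size alone, all genes had a median of -0.49 and 5.72% of them were called higher and 51.4% lower, and 0 of the 10 were called higher while Pdk3 was still called lower. The log2 fold changes were then 1.77 for Pdk4, 0.72 for Pdp2, 0.33 for Pdk2 and 0.17 for Pdhx, between 0.02 and 0.06 for Pdk1, Pdha1 and Dlat, and below 0 for Pdhb and Pdp1. None of the 10 was called in limma's fits to the authors' FPKM values. In these fits 5.22% of all genes were called higher and 38.6% lower on log2(FPKM + 1), 5.24% and 38.7% on log2(FPKM + 0.1), and 1.8% and 15.8% over all genes above 0. Pdk4 was at 1.89 to 1.91 there (limma's adjusted p = 0.0671 to 0.147). With TMM the median log2 fold change was 0.52 for the 10 genes and -0.016 for all genes tested.

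**Figure D1:**
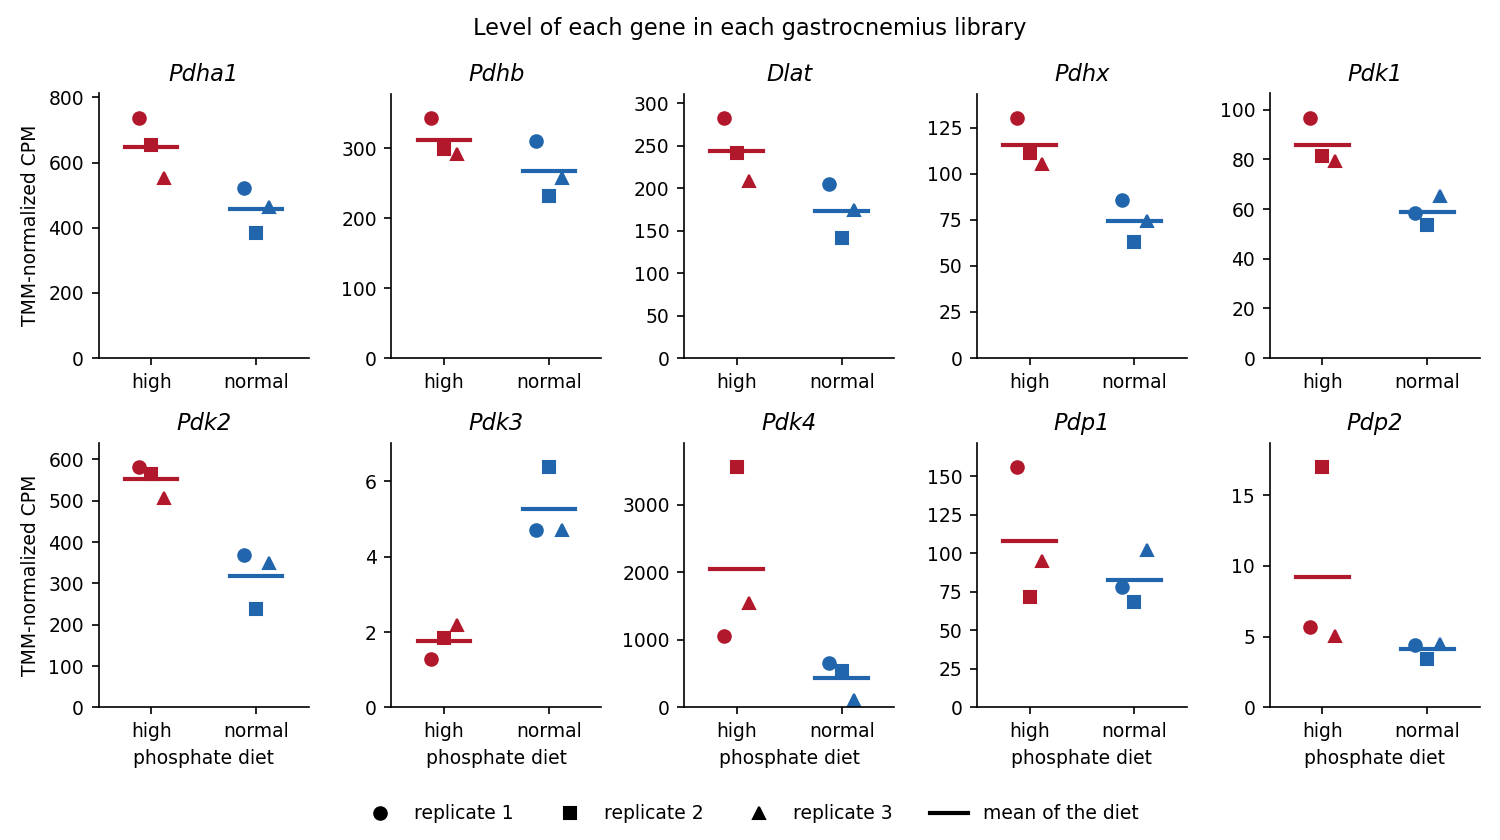
TMM-normalized CPM (vertical axes, from 0) of the 10 genes in each library of the high (red) and normal (blue) phosphate diets, with a bar at the mean of each diet. The diets do not overlap in 8 of the 10 genes, and the single high phosphate library near 3559 CPM in the Pdk4 panel is replicate 2.

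The 2 kinases that make up nearly all kinase RNA in these libraries are Pdk4 and Pdk2. The 250 bases before their RefSeq start sites (GRCm38.p6), read 5′ to 3′ on the gene's strand, are shown. Pdk4 varied far more between libraries of a diet than Pdk2 did, and any bearing of these sequences on that was not tested. Where RefSeq lists several starts, as for Pdk2, the most upstream one was taken. Capitals mark CpG dinucleotides. The Pdk4 stretch is chr6:5496279-5496528 on the minus strand and the Pdk2 stretch chr11:95041372-95041621 on the minus strand.
Pdk4: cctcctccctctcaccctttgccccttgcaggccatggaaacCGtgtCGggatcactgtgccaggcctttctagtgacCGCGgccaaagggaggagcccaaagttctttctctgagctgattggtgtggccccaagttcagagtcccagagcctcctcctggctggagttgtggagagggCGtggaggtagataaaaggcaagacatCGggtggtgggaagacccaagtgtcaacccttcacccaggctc
Pdk2: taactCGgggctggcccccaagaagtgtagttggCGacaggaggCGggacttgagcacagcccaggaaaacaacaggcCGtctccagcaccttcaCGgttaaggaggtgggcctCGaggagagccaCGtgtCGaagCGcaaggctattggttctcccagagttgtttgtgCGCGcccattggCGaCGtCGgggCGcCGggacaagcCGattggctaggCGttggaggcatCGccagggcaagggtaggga
The Pdk4 stretch holds 6 CpG and is 58.8% G and C, and the Pdk2 stretch holds 19 CpG and is 62.4% G and C. Of the 10 genes 9 matched a RefSeq promoter, all but Pdp1, and the 8 other than Pdk4 hold 11 to 29 CpG. The Pdk4 stretch thus has the fewest of the 9, while the median over 27026 promoters, 1 per gene, is also 6. Both strands were searched for a TATA box (TATAAA, in 13% of all promoters), a GC box (GGGCGG, 33%), a CCAAT box (CCAAT, 34.5%), a FoxO motif (TGTTTAC, 3.06%), a nuclear receptor half-site (AGGTCA, 13.8%) and a glucocorticoid receptor half-site (TGTTCT, 16.2%). The Pdk4 stretch holds 1 CCAAT box, on the opposite strand (ATTGG as printed) and beginning 131 bases before the start, and the Pdk2 stretch holds 3, none overlapping another motif. No other motif of the 6 has a match in either stretch, which says only that these letters are not in this window.

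Of the 4 subunits, 3 were called higher on high phosphate. Pdha1 (chromosome X, 160122209 to 160138413, GRCm38, minus strand) encodes the alpha subunit of the pyruvate-decarboxylating enzyme, the part that the kinases phosphorylate. It had 738, 654 and 553 CPM in high phosphate replicates 1, 2 and 3, against 522, 384 and 465 CPM in normal phosphate replicates 1, 2 and 3. The diets did not overlap, and the lowest high phosphate library lay just above the highest normal phosphate one. The log2 fold change was 0.50 ± 0.18 (edgeR adjusted p = 0.0436). Pdhb (chromosome 14, 8165996 to 8173025, minus strand), the beta subunit of the same enzyme, had 344, 299 and 292 CPM on high phosphate and 311, 232 and 258 CPM on normal phosphate. Normal phosphate replicate 1 lay above 2 of the high phosphate libraries, and Pdhb was not called (0.22 ± 0.16, edgeR adjusted p = 0.255). Its sign turned with library size alone (-0.25).

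Dlat (chromosome 9, 50634633 to 50659780, minus strand) encodes the acetyltransferase that forms the core of the particle. It had 283, 241 and 208 CPM on high phosphate and 205, 141 and 174 CPM on normal phosphate, with no overlap (0.49 ± 0.18, edgeR adjusted p = 0.0419). Pdhx (chromosome 2, 103021075 to 103073513, minus strand), the component that binds the dihydrolipoamide dehydrogenase to the core, had 130.4, 111 and 105 CPM on high phosphate and 85.9, 62.8 and 74.1 CPM on normal phosphate. It was the most clearly separated subunit, at 0.64 ± 0.14 (edgeR adjusted p = 0.00573), and stayed called whichever library was left out. Pdha1 and Dlat each lost the call in 4 of the 6 fits without a library: without high phosphate replicate 1 (0.41 and 0.39, edgeR adjusted p = 0.138 and 0.140), high phosphate replicate 2 (0.51 and 0.52, 0.101 and 0.0847), normal phosphate replicate 2 (0.39 and 0.36, 0.0645 and 0.0778) and normal phosphate replicate 3 (0.51 and 0.49, 0.0971 and 0.0876). All 3 called subunits lost the call with library size alone, at 0.03 for Pdha1, 0.02 for Dlat and 0.17 for Pdhx. Ratios of mean CPM, high over normal phosphate, were 1.42 for Pdha1, 1.17 for Pdhb, 1.41 for Dlat and 1.56 for Pdhx, beside 2.17 for the summed muscle fibre markers.

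The kinases moved in both directions. Pdk1 (chromosome 2, 71873224 to 71903858, plus strand), a kinase known as a target of the hypoxia response, had 96.9, 81.3 and 79.5 CPM on high phosphate and 58.3, 53.6 and 65.1 CPM on normal phosphate. The diets did not overlap, and each varied by 1.22-fold between its lowest and highest library (0.54 ± 0.12, edgeR adjusted p = 0.00564). Pdk2 (chromosome 11, 95026258 to 95041354, minus strand) had 582, 566 and 508 CPM on high phosphate and 369.5, 238 and 349.8 CPM on normal phosphate. The 3 high phosphate libraries lay close together and well above the normal phosphate ones (0.79 ± 0.19, edgeR adjusted p = 0.00824). Both kinases stayed called whichever library was left out, but with libraries scaled by size alone neither was, at 0.06 for Pdk1 and 0.33 for Pdk2 (edgeR adjusted p = 0.608 and 0.0679).

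Pdk3 (chromosome X, 93764607 to 93832201, minus strand), a kinase of narrow tissue distribution, was the only one of the 10 genes called lower. It was rare, with 28, 36 and 42 counts in high phosphate replicates 1, 2 and 3 and 123, 180 and 129 counts in normal phosphate replicates 1, 2 and 3. These are 1.28, 1.83 and 2.18 CPM on high phosphate and 4.71, 6.38 and 4.72 CPM on normal phosphate, again without overlap. Pdk3 fell by 1.58 ± 0.25 on the log2 scale (edgeR adjusted p = 0.00133), and its log2 fold change was -2.06 with library size alone. It was called in every fit to counts that was run, but not in limma's fit to log2(FPKM + 1) (-0.63, limma's adjusted p = 0.0632). White adipocyte, macrophage and fibroblast marker sums were lower in the same libraries as Pdk3, and their part in its decrease was not tested.

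Pdk4 (chromosome 6, 5483351 to 5496309, minus strand) had the highest mean of the 10 on high phosphate, in CPM and in FPKM, and the largest within-diet SD. In high phosphate replicate 1, however, its FPKM (193) was below that of Pdha1 (263). Pdk4 had 1058, 3559 and 1541 CPM in high phosphate replicates 1, 2 and 3, against 659, 538 and 116 CPM in normal phosphate replicates 1, 2 and 3. All high phosphate libraries lay above all normal phosphate libraries, yet the libraries spanned 3.36-fold within the high and 5.69-fold within the normal phosphate diet. High phosphate replicate 2 stood far above the rest, and normal phosphate replicate 3 far below. The log2 fold change was 2.23 ± 0.73 (edgeR adjusted p = 0.0420), a ratio of mean CPM of 4.69.

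The call of Pdk4 was lost without high phosphate replicate 2 (1.58, edgeR adjusted p = 0.0997), high phosphate replicate 3 (2.41, 0.0641), normal phosphate replicate 1 (2.65, 0.0532) and normal phosphate replicate 2 (2.40, 0.172), and kept without high phosphate replicate 1 (2.55, 0.0364) and normal phosphate replicate 3 (1.77, 0.0253). It was also lost when libraries were scaled by size alone (1.77, edgeR adjusted p = 0.0696) and with no filter on low counts (2.24, 0.165). Its sign was positive in all 17 alternatives. The within-diet SD of log2 CPM was 1.16 for Pdk4, 0.255 for Pdk2 and 0.149 for Pdk1. The median over the 8999 genes at a mean of at least 10 CPM was 0.152, and 99.9% of those genes had a lower SD than Pdk4.

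The phosphatases showed no called difference. Pdp1 (chromosome 4, 11958184 to 11966452, minus strand) had 156, 71.8 and 95.3 CPM on high phosphate and 77.9, 68.7 and 102 CPM on normal phosphate. The diets overlapped, with high phosphate replicate 1 above the other libraries and replicate 2 among the lowest (0.38 ± 0.28, edgeR adjusted p = 0.287), and the sign turned with library size alone (-0.11). The log2 fold change of Pdp1 was 0.02 without high phosphate replicate 1 and 0.62 without high phosphate replicate 2. Pdp2 (chromosome 8, 104591451 to 104599026, plus strand), the less abundant phosphatase, had 124, 334 and 97 counts on high phosphate and 116, 96 and 122 counts on normal phosphate. In CPM it stood at 5.68, 17.0 and 5.04 on high phosphate and 4.44, 3.40 and 4.47 on normal phosphate. The diets did not overlap, but high phosphate replicate 2 stood far above the other 5 libraries, and Pdp2 was not called (1.17 ± 0.46, edgeR adjusted p = 0.0693). Without that library the log2 fold change was 0.40 (edgeR adjusted p = 0.165). Pdp2 was called without high phosphate replicate 1 (1.44, 0.0441) and without high phosphate replicate 3 (1.48, 0.0305), and also by DESeq2 on all libraries (1.21, adjusted p = 0.0120).

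**Figure D2:**
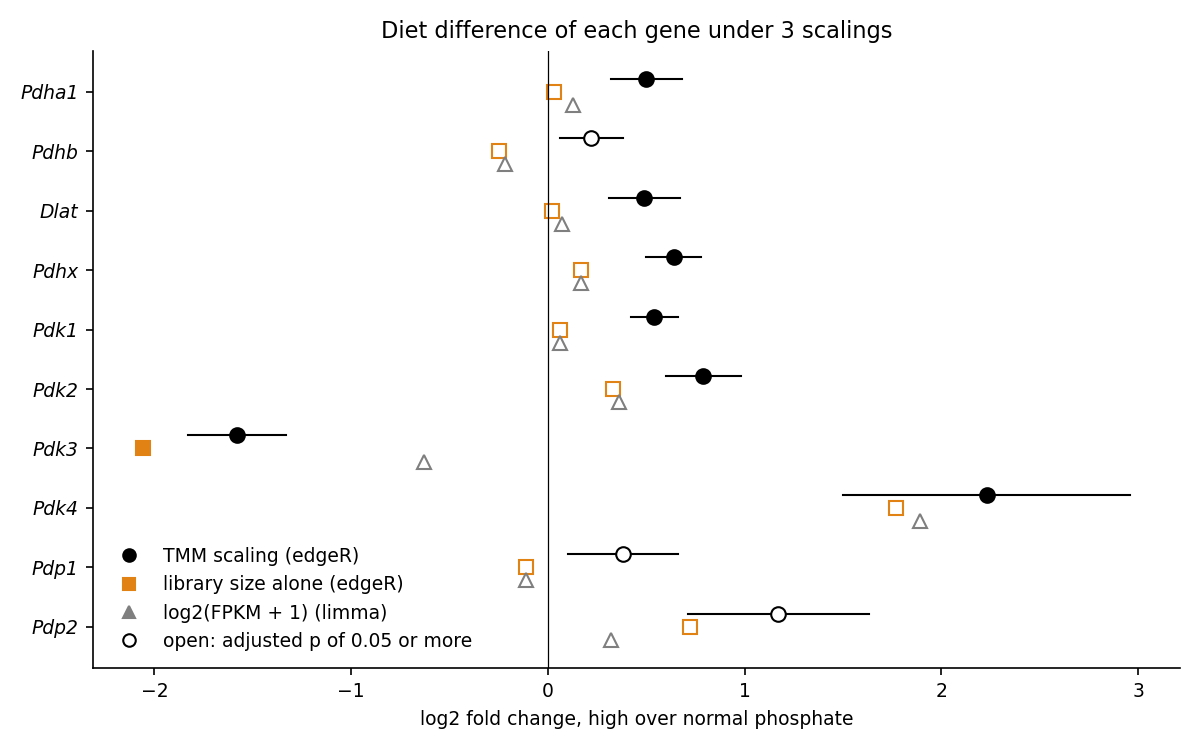
Log2 fold change of each gene, high over normal phosphate (horizontal axis), with TMM scaling (black circles, bars show SE), with library size alone (orange squares) and from limma on log2(FPKM + 1) (grey triangles). Filled symbols have an adjusted p under 0.05. Pdk4 stays between 1.77 and 2.23 and Pdk3 between -2.06 and -0.63, whereas Pdhb and Pdp1 change sign.

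A ratio of 2 genes within a library does not depend on how libraries are scaled to each other. Pdha1 counts were 2.14, 2.19 and 1.89 times those of Pdhb in high phosphate replicates 1, 2 and 3, and 1.68, 1.65 and 1.80 times in normal phosphate replicates 1, 2 and 3. The ratio of these subunits, which pair in the assembled enzyme, was thus higher in every high phosphate library, by 0.28 on the log2 scale, and did not overlap in FPKM either (0.35). This ratio and that of Pdhx to Dlat were chosen after the members' values were seen. The Pdhx to Dlat ratio was 0.46, 0.46 and 0.506 on high phosphate and 0.418, 0.446 and 0.426 on normal phosphate, a log2 difference of 0.14, and its FPKM values overlapped. Of the 50-base stretches of Pdha1 transcripts 12.9% also occur in other genes, mainly Map3k15 on the opposite strand, which had 31 to 64 counts on high and 41 to 75 on normal phosphate. Of those of Pdhb 11.4% are shared, mainly with Gm6123, which had 7 to 12 counts on high and 11 to 21 on normal phosphate, so both counts are uncertain to that extent.

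Pdk2 counts were 0.788, 0.865 and 0.920 times those of its substrate Pdha1 on high phosphate and 0.708, 0.619 and 0.753 times on normal phosphate. The kinase was thus higher relative to its substrate in every high phosphate library, by 0.31 on the log2 scale, although the FPKM ratios overlapped. Pdk4 counts were 1.43, 5.44 and 2.79 times those of Pdha1 on high phosphate and 1.26, 1.4 and 0.249 times on normal phosphate. High phosphate replicate 1 lay only just above normal phosphate replicates 1 and 2, and the diets overlapped in FPKM. The log2 difference was 1.87 with all libraries and 1.07 without normal phosphate replicate 3. Pdk4 counts were 1.82, 6.29 and 3.03 times those of Pdk2 on high phosphate and 1.78, 2.26 and 0.331 times on normal phosphate. These overlapped, with a log2 difference of 1.57, which was 0.70 without normal phosphate replicate 3.

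Pdp1 counts were 0.148, 0.0202 and 0.0619 times those of Pdk4 on high phosphate and 0.118, 0.128 and 0.881 times on normal phosphate. The diets overlapped, with a log2 difference of -2.06 that was -1.31 without high phosphate replicate 2 and -1.11 without normal phosphate replicate 3. The ratio of Pdp1 to Pdha1 overlapped, at 0.212, 0.110 and 0.172 on high phosphate and 0.149, 0.179 and 0.220 on normal phosphate, and its log2 difference of -0.18 was 0.08 without high phosphate replicate 2. The ratio of Pdp1 to Pdp2 was 27.5, 4.22 and 18.9 on high phosphate and 17.5, 20.2 and 22.9 on normal phosphate, with high phosphate replicate 2 alone far below the rest. With this library left out, the log2 difference was 0.18, against -0.63 with all libraries.

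**Figure D3:**
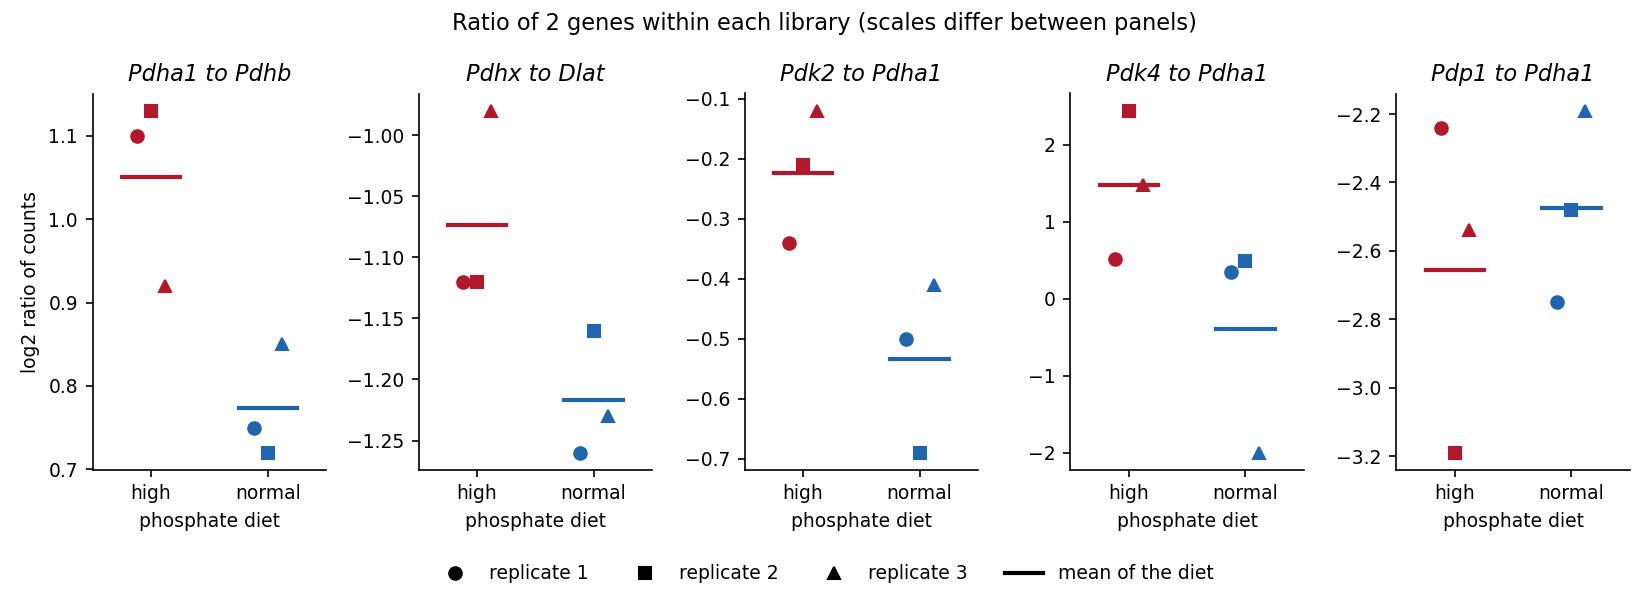
Log2 ratio of the counts of 2 genes within each library (vertical axes, which differ between panels) for high (red) and normal (blue) phosphate, with a bar at the mean of each diet. The diets are separate for Pdha1 to Pdhb, Pdhx to Dlat, Pdk2 to Pdha1 and, narrowly, Pdk4 to Pdha1, and overlap for Pdp1 to Pdha1. Of the separate ratios only Pdha1 to Pdhb is also separate in FPKM. That ratio and Pdhx to Dlat were chosen after the values were seen. Pdk4 to Pdk2, Pdp1 to Pdk4 and Pdp1 to Pdp2, which are not drawn, overlap.

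Levels of different genes were set side by side in the authors' FPKM values, which account for transcript length. On high phosphate the order of mean FPKM was Pdk4 (393 ± 255), Pdha1 (225 ± 37.9), Pdk2 (160.3 ± 7.69), Pdhb (145 ± 6.05), Dlat (41.2 ± 5.57), Pdhx (30.1 ± 2.12), Pdp1 (18.1 ± 5.85), Pdk1 (11 ± 1.11), Pdp2 (1.75 ± 1.31) and Pdk3 (1.1 ± 0.577). On normal phosphate it was Pdha1 (204 ± 16.7), Pdhb (169.8 ± 12.9), Pdk2 (126 ± 18.4), Pdk4 (114 ± 72.2), Dlat (39.0 ± 4.06), Pdhx (26.7 ± 1.96), Pdp1 (19.3 ± 3.8), Pdk1 (10.5 ± 0.672), Pdk3 (2.21 ± 0.615) and Pdp2 (1.06 ± 0.0747). The libraries of Pdk4 overlapped with those of its neighbours in both orders, as did Pdp2 with Pdk3 on high phosphate, and no other neighbours overlapped. Pdk4 took 52.7%, 79.1% and 65.0% of the summed FPKM of the 4 kinases in high phosphate replicates 1, 2 and 3, and 51.5%, 56.6% and 17.3% in normal phosphate replicates 1, 2 and 3. The diets overlapped, and in normal phosphate replicate 3 Pdk2 took 75.5% instead. The difference in the mean share of Pdk4 was 23.8 percentage points, and 11.5 without that library. Pdk3 took 0.269%, 0.200% and 0.125% on high phosphate and 0.588%, 1.07% and 1.06% on normal phosphate, with no overlap. Its FPKM in high phosphate replicate 2 (1.72, from 36 counts) and replicate 3 (0.584, from 42 counts) show that the FPKM of this rare gene did not follow its counts.

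**Figure D4:**
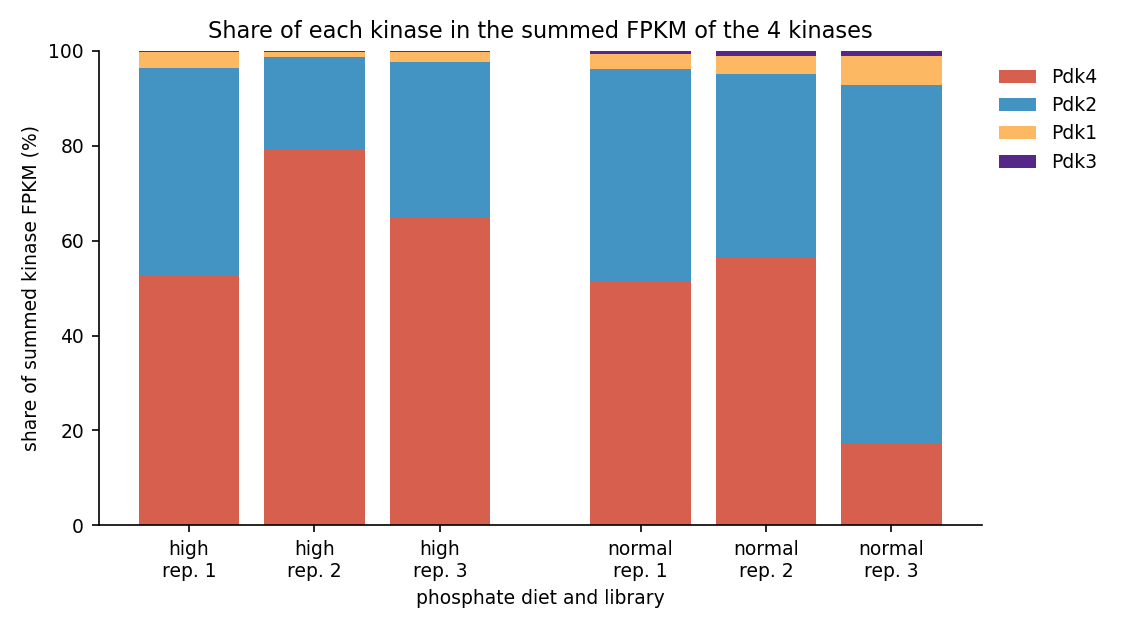
Share of Pdk4, Pdk2, Pdk1 and Pdk3 in the summed FPKM of the 4 kinases (vertical axis, %) in each library. Pdk4 takes 52.7% to 79.1% in the high and 17.3% to 56.6% in the normal phosphate libraries.

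The summed FPKM of the 4 kinases was 367, 861 and 468 on high phosphate and 307, 272 and 179.6 on normal phosphate, with no overlap. That of the 2 phosphatases was 25.5, 16.3 and 17.8 on high phosphate and 17.6, 18.7 and 24.7 on normal phosphate, and overlapped. Kinase over phosphatase FPKM was 14.4, 52.9 and 26.3 on high phosphate and 17.4, 14.6 and 7.26 on normal phosphate. The diets overlapped, and high phosphate replicate 1 had both the lowest kinase sum and the highest phosphatase sum of its diet. Pdp1 made up 79.9% of phosphatase FPKM in high phosphate replicate 2 and 93.9% to 96.1% in the other libraries.

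The remaining parts of the complex and its cofactor supply were followed in a list of 10 genes, of which 9 were tested. Of these, 5 were called higher and 1 lower, against 23% and 26.3% of all genes. Their median log2 fold change was 0.42, against -0.016 over all genes. Pdpr, the regulatory subunit of the phosphatase that lowers its activity, had 205, 173 and 171 CPM on high phosphate and 107, 82.3 and 114 CPM on normal phosphate. The diets lay far apart (0.86 ± 0.15, edgeR adjusted p = 0.00215), and Pdpr was also called under scaling by size alone (0.38, edgeR adjusted p = 0.0167). Its difference from the catalytic subunits Pdp1 and Pdp2 was not tested. Dld, the dihydrolipoamide dehydrogenase that the complex shares with related complexes, had 456, 366 and 352 CPM on high phosphate and 343, 267 and 314 CPM on normal phosphate, and was not called (0.35 ± 0.16, edgeR adjusted p = 0.108), although DESeq2 called it (0.38, adjusted p = 0.0404). Lipt2, which starts lipoate attachment, was called higher (0.70 ± 0.16) and lost the call with library size alone (0.22). Pdha2, the testis form of the alpha subunit, had 0 counts in all libraries.

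The list of pyruvate supply and use held 13 genes, of which 7 were called higher and 1 lower (median log2 fold change 0.51). Over all genes 23% were called higher and 26.3% lower (median -0.016). The pyruvate carrier of the inner membrane was not called: Mpc1 had 87.8, 90.1 and 96.8 CPM on high phosphate and 82.4, 53.9 and 77.2 CPM on normal phosphate (0.36 ± 0.16, edgeR adjusted p = 0.0778; called without normal phosphate replicate 1 at 0.49 and with no filter on low counts at 0.38), and Mpc2 overlapped (0.20 ± 0.21). Ldha, the muscle form of lactate dehydrogenase, was higher (0.79 ± 0.22) but lost the call with library size alone (0.31) and without high phosphate replicate 1 (0.65), and Ldhb, the heart form, was not called (0.32 ± 0.20). The largest increases in the list were in Gpt2, which interconverts pyruvate and alanine in mitochondria (1.54 ± 0.27), the lactate exporter Slc16a3 (1.44 ± 0.19, at 457, 489 and 376 CPM on high and 184, 126 and 176 CPM on normal phosphate) and the malic enzyme Me1 (1.03 ± 0.18). All 3 were called with library size alone as well. Me2, the mitochondrial malic enzyme, fell by 0.73 ± 0.16 on the log2 scale.

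The related dehydrogenase complexes for branched-chain keto acids and for 2-oxoglutarate gave 3 genes called higher and 0 lower of 8 tested (median log2 fold change 0.44). Over all genes 23% were called higher and 26.3% lower (median -0.016). The 3 called were Ogdh (0.67 ± 0.19), Dlst (0.54 ± 0.16) and Bckdha (0.46 ± 0.14), and all lost the call with library size alone (0.20, 0.06 and -0.01). All 3 also lost it without high phosphate replicate 1 (0.65, 0.45 and 0.44) or high phosphate replicate 2 (0.62, 0.52 and 0.36), Dlst without normal phosphate replicate 3 (0.51) and Bckdha without normal phosphate replicate 2 (0.38). Bckdk, the kinase of the branched-chain complex and a relative of the Pdk family, was not called (0.36 ± 0.17, edgeR adjusted p = 0.108; called without normal phosphate replicate 1 at 0.52), nor was the matching phosphatase Ppm1k (0.20 ± 0.21, edgeR adjusted p = 0.449).

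A list of 12 transcription regulators reported for Pdk4 had 7 genes called higher and 1 lower, and a median log2 fold change of 0.62. Over all genes 23% were called higher and 26.3% lower (median -0.016). The fatty acid receptors Ppara (1.18 ± 0.23) and Ppard (0.60 ± 0.15) and their partner Rxra (0.79 ± 0.15) were higher, and Pparg, the adipocyte form, fell by 1.31 ± 0.19 on the log2 scale. Ppard (0.13) and Rxra (0.32) lost the call with library size alone, and both and Ppara lost it in the FPKM fits (0.05 to 0.71), where Pparg kept it. Klf15, a fasting and glucocorticoid-responsive factor, had 72.6, 140.3 and 61.7 CPM on high phosphate and 38.6, 27.1 and 40.2 CPM on normal phosphate (1.38 ± 0.32, edgeR adjusted p = 0.0107), and lost the call without normal phosphate replicate 2 (1.22), with no filter on low counts (1.39) and in the FPKM fits (0.81 to 0.84). Foxo1 had 67.0, 74.8 and 33.7 CPM on high phosphate and 25.7, 37.3 and 34.5 CPM on normal phosphate. Its diets overlapped, and its call (0.85 ± 0.29, edgeR adjusted p = 0.0421) was kept without high phosphate replicate 3 (1.14) and lost without each of the other 5 libraries (0.65 to 0.96). Foxo1 was called in 5 of 17 alternatives, and not with library size alone (0.35), no filter (0.87), limma-voom (0.78) or FPKM (0.28 to 0.33). Ppargc1a, the coactivator of oxidative metabolism, had 94.0, 243 and 107 CPM on high phosphate and 145, 35.6 and 61.0 CPM on normal phosphate and was not called (0.88 ± 0.62, edgeR adjusted p = 0.279). Its diets overlapped, and it was called only without normal phosphate replicate 1 (1.62, edgeR adjusted p = 0.0463).

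Of 15 fasting-responsive or fatty acid-responsive genes of muscle, 7 were called higher, 0 lower and 8 not (median log2 fold change 0.48). Over all genes 23% were called higher and 26.3% lower (median -0.016). Ucp3, a mitochondrial carrier induced in fasting, had 287, 591 and 338 CPM on high phosphate and 93.3, 64.0 and 38.1 CPM on normal phosphate (2.64 ± 0.39, edgeR adjusted p = 0.00166). Its libraries fell in the order of Pdk4 within both diets. Fbxo32, a ubiquitin ligase of muscle atrophy, had 545, 1436 and 846 CPM on high phosphate and 246, 157 and 126 CPM on normal phosphate (2.42 ± 0.39), and also kept that order. Fabp3 rose by 1.17 ± 0.24 and did not keep that order on high phosphate (291, 382 and 248 CPM). How many of all genes keep the order of Pdk4 was not counted. High phosphate replicate 2, the library with the highest Pdk4 and Pdp2, was also the highest of the 6 for Klf15, Ppargc1a, Foxo1, Ucp3 and Fbxo32. This library was highest for 2 of the 10 members and for 14.8% of all genes tested. High phosphate replicates 1 and 3 were highest for 21.6% and 12.9% of all genes. Among the 28 related genes picked by the naming rule, high phosphate replicate 2 was highest for 13. The rule picks mostly genes called higher on high phosphate, so this count cannot be set against the share over all genes. High phosphate replicate 2 had the highest erythroid marker sum, 727 CPM, against 114 and 176 CPM in the other high phosphate libraries and 215 to 391 CPM on normal phosphate, and the part of this in its high values was not tested.

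**Figure D5:**
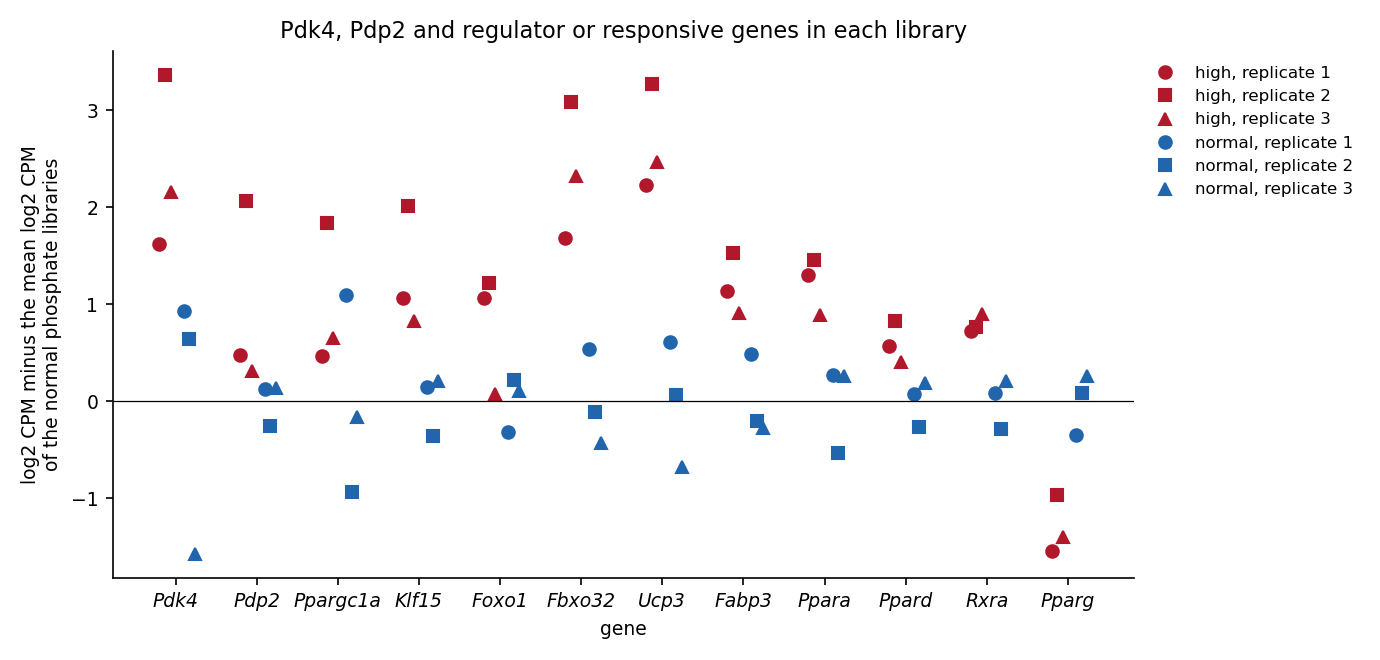
Log2 CPM minus the mean log2 CPM of the normal phosphate libraries (vertical axis) for Pdk4, Pdp2 and 10 regulator or responsive genes in each library of the high (red) and normal (blue) phosphate diets. High phosphate replicate 2 (red square) is the highest library in every gene shown except Rxra and Pparg, and normal phosphate replicate 3 (blue triangle) the lowest for Pdk4, Fbxo32, Ucp3 and Fabp3. The genes shown are a selection. High phosphate replicate 2 is highest for 13 of the 28 related genes picked by the naming rule and for 14.8% of all genes tested. The rule picks mostly genes called higher on high phosphate, so the 13 of 28 cannot be set against the share over all genes. Pparg runs the other way, with 7.97 to 11.9 CPM on high and 18.3 to 27.9 CPM on normal phosphate.

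Over the 6 libraries, the log2 CPM of Pdk4 correlated most closely with that of Rlf (Pearson r = 0.985), Kdelr1 (0.982), Zfyve1 (0.975), Aspscr1 (0.973) and Fam234a (0.972), out of 8999 genes at a mean of at least 10 CPM. These values describe 6 points that share libraries, scaling and diet groups. Their own differences between libraries were far smaller than those of Pdk4: Rlf had 25.7, 27.1 and 26.3 CPM on high phosphate and 25.4, 25.3 and 22.9 CPM on normal phosphate. Zfyve1 (0.49, edgeR adjusted p = 0.00964) and Fam234a (0.35, edgeR adjusted p = 0.0291) were called, and the other 3 were not.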

How the data were processed

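The authors deposited a table of raw counts, whole numbers for each gene, and a second table of FPKM values for 38011 genes. Per the submitters' processing notes, which give neither roles nor order, the tools were DESeq2 1.6.3, featureCounts 1.4.6, HISAT2 2.0.1 and Trim Galore 0.4.1, and the build GRCm38. Which annotation, strand setting and FPKM tool were used is not given in the sources used here, so reads of Pdha1 and Map3k15, which overlap on opposite strands, may have been counted for either. Map3k15 held 31 to 75 counts in a library, beside 10644 to 16098 for Pdha1.

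Counts were tested with edgeR 4.0.16 (R 4.3.3) using filterByExpr, TMM, robust quasi-likelihood fits and Benjamini-Hochberg adjustment. SE is the log2 fold change divided by the square root of F, which is approximate, with a median of 0.162 over all genes. The fit was also run on counts simulated from its own means and dispersion trend, with few genes changed. Such a run cannot test the scaling when many genes differ, nor the spread of single genes. Chi-square values per degree of freedom between libraries of a diet, scaled by total counts, were 16.5 to 52.4, above sampling noise. This does not show whether the libraries are separate mice. Each library was counted on its own. Alternatives used DESeq2 1.42.0, limma 3.58.1, other scalings and filters, FPKM with pseudocounts of 1 and 0.1, and left out each library. FPKM tests were limited to genes at 1 FPKM or more in 3 libraries unless stated. Locations and shared 50-base stretches came from GENCODE M21 (GRCm38), and promoters from RefSeq.

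All 10 members are named. Named related genes were up to 3 per list and direction by smallest p among those called, plus 11 chosen whatever their result; 2 of these related genes are not reported here. Members and lists were chosen with earlier results of these data known.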

Additional observations from a re-analysis of the deposited data

How the results depend on the processing

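The counts of calls depended on the scaling. With library size alone, 878 genes were called higher and 7886 lower, against 3528 and 4035 with TMM. With limma 732 genes were higher and 5406 lower on log2(FPKM + 1), 735 and 5422 on log2(FPKM + 0.1), and 566 and 4955 over all genes above 0 in FPKM. Of the 10 members, 0 were called higher with library size alone, and 0 higher and 0 lower in all 3 FPKM fits, against 6 and 1; at log2(FPKM + 1) the smallest limma adjusted p was that of Pdk3 (0.0632). Of the 57 related genes tested, 13 were higher and 10 lower with library size alone, 9 and 7 on log2(FPKM + 1), 10 and 7 on log2(FPKM + 0.1) and 5 and 4 over all genes above 0, against 29 and 3. With library size alone the log2 fold changes of the 10 members were lower than with TMM by 0.45 (Pdp2) to 0.49 (Pdp1). The median over all genes was then -0.49. Why the scalings differ was not tested.

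Among the 38 genes that the naming rule selects, the sign turned in 34 of 644 alternative values. With library size alone these were Pdp1 (-0.11), Pdhb (-0.25), Mpc1 (-0.09), Mpc2 (-0.26), Ldhb (-0.14), Dld (-0.13), Bckdha (-0.01), Bckdk (-0.10) and Ppm1k (-0.28). On log2(FPKM + 1), with and without the filter, they were Pdp1 (-0.11), Pdhb (-0.22), Mpc2 (-0.35), Ldhb (-0.12), Dld (-0.13), Bckdha (-0.12), Bckdk (-0.07) and Ppm1k (-0.20). On log2(FPKM + 0.1) the values of Pdp1 (-0.12) and Ppm1k (-0.27) differed and the others were the same. All genes had a median of -0.493 with library size alone, -0.325 on log2(FPKM + 1) and -0.391 on log2(FPKM + 0.1). The genes listed lay above these medians, except Mpc2 on log2(FPKM + 1). Without the filter the median was -0.0818, and only Bckdk of those listed lay above it. Without normal phosphate replicate 2, Mpc2 stood at -0.01, and without the others in turn at up to 0.43. Of these genes only Bckdha was called with TMM.

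Without single libraries, 3 to 6 members were called higher (3 without high phosphate replicate 2 or normal phosphate replicate 2) and 1 lower, and 17 to 32 related genes higher (17 without high phosphate replicate 1) and 2 to 4 lower. Over all genes, 2782 to 3502 were higher and 3370 to 4075 lower. In counts rather than FPKM, the difference in the share of Pdk1 among the kinases was -4.22 percentage points, against -2.16. Without single libraries, the difference between diets ranged over 11.5 to 31.2 percentage points for the share of Pdk4, -28.1 to -9.61 for that of Pdk2 and -7.55 to 0.536 for that of Pdp1. The log2 ratio differences ranged over 0.70 to 2.08 for Pdk4 to Pdk2, 1.07 to 2.35 for Pdk4 to Pdha1, -2.75 to -1.11 for Pdp1 to Pdk4, -1.17 to 0.18 for Pdp1 to Pdp2 and -0.39 to 0.08 for Pdp1 to Pdha1.

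The replicate numbers were not taken to pair libraries: same-numbered libraries deviated from their diet means with correlations of -0.0215, 0.0223 and 0.0188, and 3 of 6 libraries correlated best with their own number. With the replicate number as a block 3407 genes were higher and 3921 lower, 6 members were higher and 1 lower, 27 related genes were higher and 4 lower, and of the related genes so selected only Foxo1 lost its call (0.79, edgeR adjusted p = 0.0568). At 28 to 42 counts in the high phosphate libraries, Pdk3 carries the largest counting error of the 10.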
